A study of Mus musculus with 24 samples.

Results

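C57BL/6 is an inbred mouse strain and CD1 an outbred stock, and wild-type kidney stroma of both was sequenced at E13.5, a day of embryonic development at which the kidney branches and lays down its first nephrons. The comparison described here is between the 3 wild-type C57BL/6 libraries and the 3 wild-type CD1 libraries of that stage, chosen by their labels, 6 of the 24 libraries of the series. Stromal cells were sorted by flow cytometry from kidneys of a line that carries FoxD1Cre-eGFP, in which the Foxd1 promoter drives Cre recombinase and a green fluorescent protein. The sources used here do not say plainly whether each wild-type embryo carried that allele, nor which libraries came from cells that were sorted a second time. The other libraries are wild-type cells of both strains at E12.5, β-catSD cells on C57BL/6 (called SD below) and β-catSO cells on CD1 (SO), each with 3 libraries per stage. The series compares stabilized with deficient beta-catenin, and its labels give the mutant alleles no further. The 2 strains served as controls of 2 different mutants, so that strain goes with breeding colony and, among mutants, with genotype. The design text mentions 3 kidneys per genotype. Nothing says that libraries of a group came from separate animals. A p-value therefore measures the spread between these libraries, an unknown part of which may be technical.

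Foxd1-positive stroma is the mesenchyme that surrounds the nephron progenitors and the branching ureteric bud, and it gives rise to interstitial fibroblasts, pericytes, vascular smooth muscle and mesangial cells. Inbred strains carry fixed alleles, whereas an outbred stock carries several alleles at many loci. Strain differences in RNA level can come from regulatory variants and from genes that differ in copy number, and a read from one strain can also align less well to a reference built from another. The reference used by the authors, mm10, is a C57BL/6J genome. The part that alignment plays in the values below was not tested.

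The C57BL/6 libraries held 7084482, 9197985 and 8728371 reads over 13803 genes, and the CD1 libraries 15990846, 6746977 and 7669193. CD1 replicate 1 was the deepest. It correlated at 0.951 and 0.927 with CD1 replicates 2 and 3, against 0.957 between those 2 and 0.964 to 0.973 within C57BL/6. Its correlations with the C57BL/6 libraries were 0.934 to 0.947. CD1 replicate 2 correlated better with each C57BL/6 library (0.962 to 0.968) than with either CD1 library. CD1 replicate 3 correlated at 0.958 with C57BL/6 replicate 1, and less well with C57BL/6 replicates 2 and 3 than with CD1 replicate 2. By these correlations the CD1 libraries did not form a group of their own. Foxd1, the transcription factor that defines the sorted lineage, was at 427, 437 and 441 CPM (reads scaled to a common library size) in C57BL/6 and 307, 485 and 460 CPM in CD1. Its fitted difference was 0.09 ± 0.15 (SE) on the log2 scale, with an adjusted p of 0.85 in limma. Ctnnb1, which encodes beta-catenin, differed by 0.01 ± 0.06 (limma adjusted p = 0.98).

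RNA of several other cell types differed more among the CD1 libraries than among the C57BL/6 ones. The 14 ureteric epithelium genes summed to 50.2 to 51.9 CPM in C57BL/6 and to 385, 62.8 and 68.8 CPM in CD1 replicates 1, 2 and 3. Krt8, a keratin of simple epithelia, was at 40.4 CPM in CD1 replicate 1 and at 0 to 5.98 CPM in the other 5 libraries. The 14 endothelial genes summed to 150 to 158 CPM in C57BL/6 and to 997, 97.4 and 51.9 CPM in CD1. For the 13 nephron progenitor genes the sums were 320 to 359 CPM in C57BL/6 and 736, 327 and 314 CPM in CD1. Those of the 16 cortical and progenitor stroma genes were 8279 to 8702 CPM in C57BL/6 and 5481, 8256 and 8719 CPM in CD1, lowest in CD1 replicate 1. CD1 replicate 3 was the library with liver transcripts, with 997 CPM over 8 genes against at most 28.8 CPM in the other 5, and with 2236 reads of Alb, the gene of serum albumin. Macrophage genes summed to 217 to 357 CPM in C57BL/6 and 354 to 485 CPM in CD1. Erythroid genes varied within both strains, at 66.4, 51.5 and 1189 CPM in C57BL/6 and 4053, 1412 and 49.7 CPM in CD1. Every member of the ureteric, endothelial and macrophage lists had a read in both strains. In bulk RNA, fewer cells of a type and less RNA per cell cannot be told apart. Xist, the transcript of the inactive X chromosome, was at 87.6, 521 and 15.8 CPM in the C57BL/6 libraries and at 329, 1237 and 497 CPM in the CD1 ones, where the strains overlapped. Ddx3y, a gene of the Y chromosome, was at 100.3, 37.7 and 86.2 CPM against 49.7, 15.4 and 61.9. Both were thus read in every library, in amounts that varied within each strain. In each strain replicate 2 had the most Xist and the least Ddx3y, so its libraries did not hold the same balance of these transcripts. The counts of called genes with these levels as covariates are given below.

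**Figure D1:**
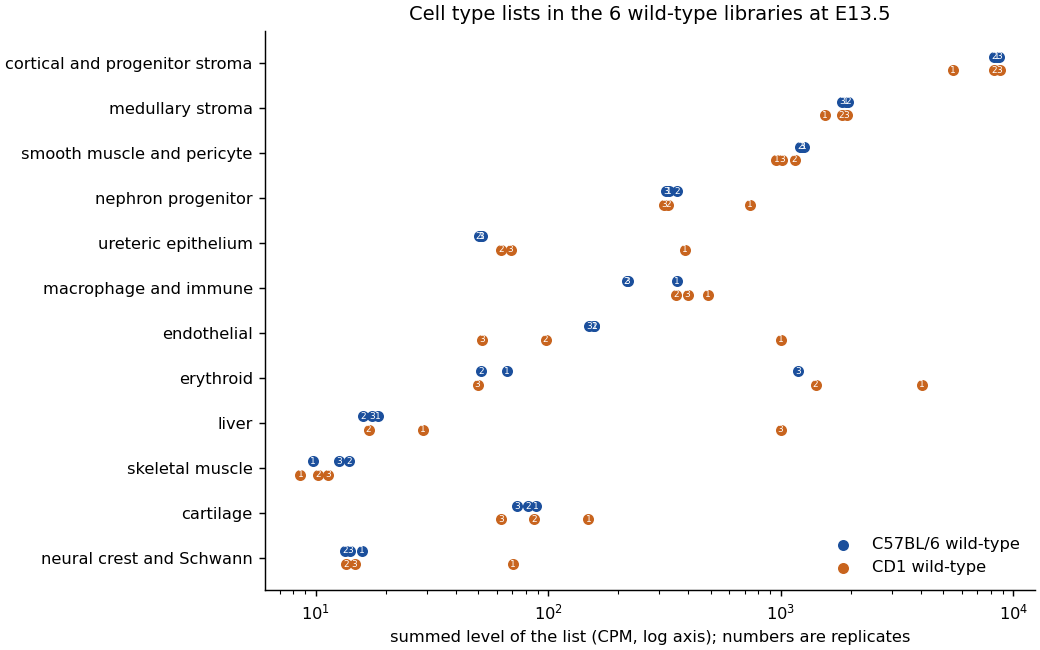
Summed level of 12 cell type lists (x axis, CPM, log scale) in the 3 C57BL/6 (blue) and 3 CD1 (orange) wild-type libraries at E13.5, 1 point per library with its replicate number. CD1 replicate 1 is highest for the nephron progenitor, ureteric, endothelial, macrophage, erythroid, cartilage and neural crest lists. It is lowest for both stromal lists and for the smooth muscle and pericyte and the skeletal muscle lists. CD1 replicate 3 alone is high for liver genes.

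The ribosomal protein genes Rpl35a, Rpl29 and Rps2, with some of the widest strain differences, have close copies elsewhere in the genome. A coding stretch of each is shown beside a copy, because reads from such stretches can be placed at either locus. The sequences are GENCODE M21 transcripts on GRCm38 (mm10), 90 bases, 5′ to 3′, with capitals at the bases that differ between gene and copy. Rpl35a lies on the plus strand at chr16:33057445-33057534 and Rpl35a-ps2, a processed pseudogene, on the minus strand at chr1:181242165-181242254, 99.7% identical over 333 bases. Rpl29 lies on the plus strand at chr9:106431251-106431340 and Rpl29-ps2 on the plus strand at chr13:4614464-4614553, 97.0% identical over 635 bases. Rps2 lies on the plus strand at chr17:24720276-24720365 and Rps2-ps13 on the plus strand at chrX:52898588-52898677, 99.2% identical over 882 bases.
Rpl35a: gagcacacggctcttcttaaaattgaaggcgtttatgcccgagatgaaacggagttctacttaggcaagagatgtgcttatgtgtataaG
Rpl35a-ps2: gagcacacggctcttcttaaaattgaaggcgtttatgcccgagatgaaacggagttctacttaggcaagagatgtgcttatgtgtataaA
Rpl29: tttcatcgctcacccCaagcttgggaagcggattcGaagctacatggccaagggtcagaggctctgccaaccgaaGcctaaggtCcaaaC
Rpl29-ps2: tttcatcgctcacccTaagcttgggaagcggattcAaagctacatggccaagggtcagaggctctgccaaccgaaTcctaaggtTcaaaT
Rps2: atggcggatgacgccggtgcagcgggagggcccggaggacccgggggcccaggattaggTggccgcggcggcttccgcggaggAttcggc
Rps2-ps13: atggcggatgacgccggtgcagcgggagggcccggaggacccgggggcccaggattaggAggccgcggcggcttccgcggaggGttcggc
The stretches differ at 1, 5 and 2 of 90 bases.

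At E13.5, 58 of 13803 genes differed between the strains (0.420%), 46 higher in C57BL/6 (0.333%) and 12 lower (0.0869%). Calling a gene took an adjusted p (Benjamini-Hochberg) under 0.05 in a limma fit over all 24 libraries, and every difference is C57BL/6 minus CD1 on the log2 CPM scale. The called genes included a set of ribosomal protein genes, the pericyte marker Rgs5, the noncoding gene AA388235 and the condensin subunit gene Ncapd2, all higher in C57BL/6. Cntnap5b, Dmpk and Eno1b were lower. The differences ran from 0.26 to 7.79 among the genes that were higher and from -0.33 to -3.96 among those that were lower, and 36 of the 58 were smaller than 2-fold. In all 58, the 3 libraries of one strain lay beyond the 3 of the other, which was also so for 16.4% of all genes tested. At an unadjusted p under 0.05, 897 genes were higher and 789 lower, 12.2% of those tested. Of the genes described above and below, these fall outside the rule for named genes and were chosen after their values were seen: AA388235, 2610507I01Rik, Rps28, Rpl7a, Rps12, Pclaf, Bub3, Melk, Rrs1, Rcc1, Ube2s, Eif2s2, Eif3e, Ctsk, Serpine2, Cux2, Npy1r, Rprm, Lbp, Ttbk1, Scgb1a1, Sftpc, A230056P14Rik, Il11ra1, Odc1, Snhg11, Rbpms2, Pvr, Pnpla6, Eno1, Trim12c, H2-K1, H2-D1, Alb and Ddx3y.

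The number of called genes rested on single libraries. It was 53, 29 and 28 without C57BL/6 replicates 1, 2 and 3, and 32 and 37 without CD1 replicates 1 and 2. Without CD1 replicate 3, the library with liver transcripts, it rose to 86, of which 39 were among the 58. The part of the liver transcripts in that count was not tested. There were 17 genes called whichever of the 6 libraries was left out, 14 higher and 3 lower, among them Rpl35a, AA388235, Rpl29, 2610507I01Rik, Rgs5, Rps2, Rps4l, Ndufa12, Fut10, Rbm6, Ncapd2, Rrs1 and Pclaf, and Cntnap5b, Eno1b and Dmpk. Of these 17, 8 were also called under every other setting. In the fit of these 6 libraries alone the calls of 2610507I01Rik, Fut10, Ncapd2, Rrs1, Pclaf, Cntnap5b, Eno1b and Dmpk were lost, and with voom weights those of Rpl35a and Cntnap5b. All 58 kept their direction in each of the 19 alternative fits that tested them, and the stricter filter on low values left 6 of them untested. With the macrophage, endothelial and erythroid levels as covariates 39 genes were called, 25 of them among the 58. With the ureteric epithelium level, an alternative chosen after seeing the data, 28 were called, 25 of them among the 58, and with the Xist level, also chosen after seeing the data, 43, of which 34 were.

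**Figure D2:**
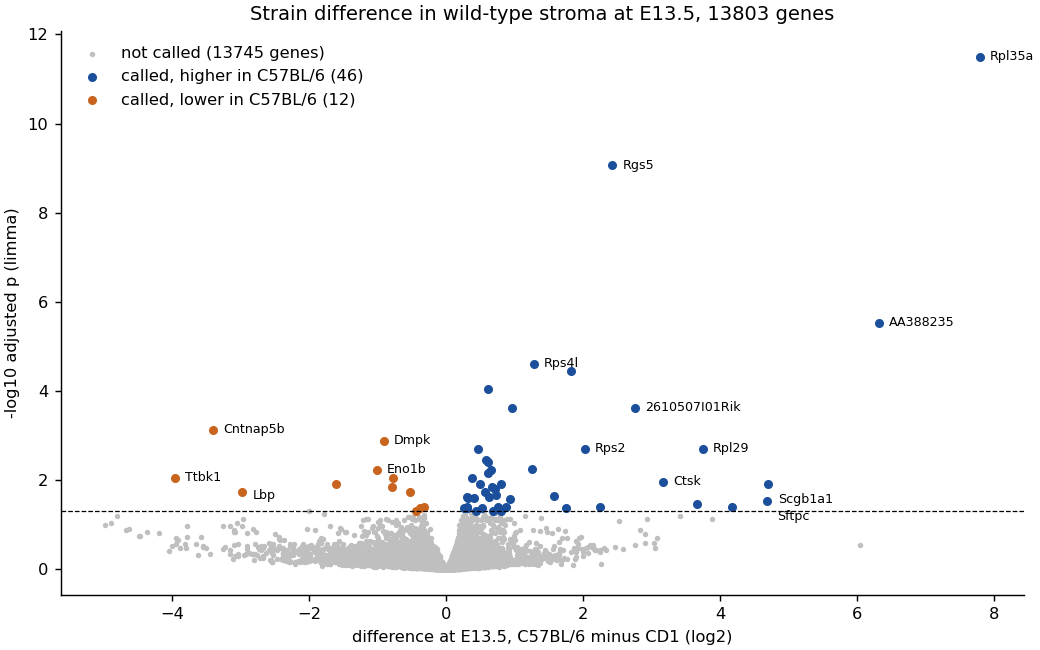
Difference between C57BL/6 and CD1 wild-type stroma at E13.5 (x axis, log2) against the -log10 of the limma adjusted p (y axis) for 13803 genes, with the threshold as a dashed line. Called genes are coloured, 46 to the right and 12 to the left, and Rpl35a, Rgs5 and AA388235 lie highest.

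Of the 82 cytosolic ribosomal protein genes in the file 5 were higher in C57BL/6 and 0 were lower, beside 0.420% of all genes called. The median difference of the 82 was 0.09, against -0.0023 for all genes, and 58 of them were above 0 and 24 below. Ribosomal proteins build the small and large subunits of the ribosome, and most are made at high and matched levels in growing cells.

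Rpl35a encodes a protein of the large subunit and lies on chromosome 16 (33056453 to 33060189, plus strand). It was at 4.71, 4.98 and 4.83 log2 CPM in C57BL/6 and at -2.74, -2.17 and -3.94 in CD1. In reads these were 182, 289 and 242 against 2, 1 and 0, so the CD1 libraries were all but empty. The ratio of the summed reads, scaled to library size, was 299.5, with a 95% interval from 102 to 1456 that covers counting error only. The fitted difference was 7.79 ± 0.37 (SE, limma adjusted p = 3.2e-12), and it was 7.77 with voom weights, where the adjusted p of limma was 0.12.

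Rpl29, a large subunit protein on chromosome 9 (106429454 to 106431568), was at 4.11, 4.58 and 4.56 log2 CPM in C57BL/6 and at -0.10, 0.64 and 1.48 in CD1. The groups did not overlap, and the difference was 3.74 ± 0.58, a 13.4-fold higher level (limma adjusted p = 0.0020). Rps2, a small subunit protein on chromosome 17 (24718116 to 24721929), was at 6.05, 6.19 and 6.46 log2 CPM in C57BL/6 and 4.70, 4.02 and 3.91 in CD1. That difference was 2.02 ± 0.32, or 4.07-fold (limma adjusted p = 0.0020).

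Rps4l on chromosome 6, annotated as a transcribed processed pseudogene of the Rps4 family, was at 5.98, 6.30 and 6.03 log2 CPM in C57BL/6 and 5.15, 4.85 and 4.48 in CD1. The difference was 1.28 ± 0.14, or 2.42-fold (limma adjusted p = 2.4e-05). The gene overlaps Tmtc1 on the other strand, and whether counting used strand is not given in the sources used here. Rps28, a small subunit protein on chromosome 17 (33819027 to 33824562, minus strand), was at 7.76, 7.84 and 7.73 against 7.18, 7.20 and 7.13 log2 CPM. It was 1.52-fold higher in C57BL/6 (limma adjusted p = 0.0071), and without C57BL/6 replicate 2 the adjusted p was 0.051.

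Near-identical copies were counted for all genes. A transcript of 10 of 56 called genes (17.9%) aligned over at least 50% of its length, at 95% identity or more, to a GENCODE transcript of another locus, whereas 411 of 13678 tested genes (3.00%) did. The numbers of such loci were 27 for Rps2, 26 for Rpl29, 14 for Rpl35a, 3 for Eno1b and Odc1, 2 for Il11ra1 and Trim12a, and 1 for Eif3e, Rbm6 and Rps28. Of the 77 ribosomal protein genes that were not called, 43 also had 1 or more. Rpl7a, with 38 such loci, differed by 0.18, and Rps12, with 23, by 0.21. The levels of these genes are uncertain where the authors' counting could split reads between copies, and how it treated such reads is not given in the sources used here.

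**Figure D3:**
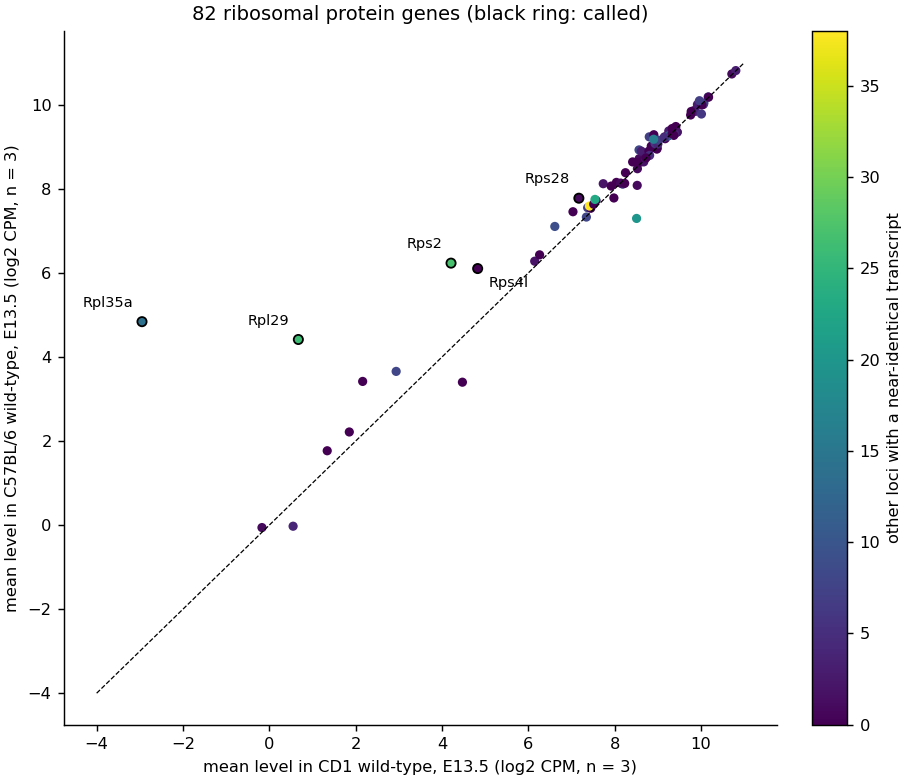
Mean level of 82 ribosomal protein genes in CD1 (x axis) and C57BL/6 (y axis) wild-type stroma at E13.5, in log2 CPM, n = 3 libraries each, coloured by the number of other loci with a near-identical transcript. The 5 called genes are ringed in black and lie above the dashed line of equal level; most of the others lie close to it.

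Rgs5 was the called gene of the smooth muscle and pericyte list, 1 of 14 members. It encodes a regulator of G protein signalling that is widely used as a pericyte marker, and lies on chromosome 1 (169655501 to 169695813). Its level was 7.40, 7.50 and 7.57 log2 CPM in C57BL/6 and 5.48, 4.94 and 4.77 in CD1, so each CD1 library was well below each C57BL/6 library. The difference was 2.43 ± 0.15, or 5.37-fold (limma adjusted p = 8.7e-10), and it was 2.63 without CD1 replicate 1. The 13 other members ranged from -2.10 to 1.00 with none called, and the median of the list was 0.02. Of the 14 members, 8 were above 0 and 6 below. An unadjusted p under 0.05 in limma was found for 7 of them, Rgs5 included, beside 12.2% of all genes.

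Ndufa12, a subunit of respiratory complex I, was at 5.57, 5.05 and 5.21 log2 CPM in C57BL/6 and at 4.20, 3.76 and 4.10 in CD1. The 2.39-fold difference (limma adjusted p = 0.0056) was the only call among 78 oxidative phosphorylation genes, whose median was 0.03. With 0.420% of all genes called, nothing about that list is read from 1 call. Fut10, a fucosyltransferase on chromosome 8, was at 5.56, 5.26 and 5.43 log2 CPM in C57BL/6 and 4.20, 4.50 and 4.65 in CD1, 1.96-fold higher (limma adjusted p = 0.00024). Rbm6, an RNA-binding protein that acts in splicing, was 1.53-fold higher, at 6.81 ± 0.07 (SD, n = 3) in C57BL/6 and 6.19 ± 0.06 (SD, n = 3) in CD1 (limma adjusted p = 8.8e-05).

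AA388235, a long noncoding gene on chromosome 17 (33981492 to 33985358 in the RefSeq annotation of GRCm38), had 32, 26 and 46 reads in C57BL/6 and 0 reads in each CD1 library. Against a floor of 3 reads over the CD1 group it was at least 43.7-fold higher, with a limma adjusted p of 3.0e-06. It lies 157 kb from Rps28, and 0 of the 13 tested genes between them were called. 2610507I01Rik, a noncoding transcript on chromosome 11 (59199836 to 59202385), was at 3.04, 3.49 and 3.25 log2 CPM in C57BL/6 and -0.53, 0.77 and 1.27 in CD1, 6.78-fold higher (limma adjusted p = 0.00024).

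Ncapd2, Pclaf, Bub3, Melk, Rcc1 and Ube2s were set together after their values were seen, and 46 of the 58 calls were higher in C57BL/6, so their shared direction is no result about them as a group. Ncapd2, a subunit of condensin, which compacts mitotic chromosomes, was at 8.24, 8.30 and 8.37 log2 CPM in C57BL/6 and 7.56, 7.66 and 7.87 in CD1, 1.52-fold higher (limma adjusted p = 0.0039). Pclaf, a factor that binds the replication clamp PCNA, was at 8.11 ± 0.07 and 7.64 ± 0.01 (SD, n = 3 each), 1.38-fold higher. Bub3, of the spindle checkpoint, was higher by 0.38 and Melk, a mitotic kinase, by 0.49 on the log2 scale. Both calls were lost without C57BL/6 replicate 3, that of Bub3 also without C57BL/6 replicate 2 and that of Melk also without CD1 replicate 2. Rcc1, an exchange factor for Ran on chromatin, and Ube2s, a ubiquitin-conjugating enzyme of the anaphase-promoting complex, were higher by 0.32 and 0.31. Of the 6 fits that leave out a library, the call of Rcc1 held only without CD1 replicate 2 and that of Ube2s only without C57BL/6 replicate 1. They were lost under 4 and 8 of the 13 other settings. Rrs1, a ribosome assembly factor, was higher by 0.59 and the initiation factor genes Eif2s2 and Eif3e by 0.31 and 0.30. The calls of both initiation factors held in 1 of the 6 fits that leave out a library. Of the 20 genes of the cell cycle list, 0 were called, beside 0.420% of all genes. Their median difference was 0.18, 18 were above 0, and 9 had an unadjusted p under 0.05, beside 12.2% of all genes. Aurkb, a mitotic kinase with the smallest p of that list, differed by 0.39 (limma adjusted p = 0.076).

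Other called genes encode secreted, lysosomal and signalling proteins. Ctsk, the cysteine protease cathepsin K, was at 2.83, 1.83 and 2.75 log2 CPM in C57BL/6 and 0.50, -0.95 and -1.62 in CD1, 8.93-fold higher (limma adjusted p = 0.011), and its call was lost without C57BL/6 replicate 1, C57BL/6 replicate 3 or CD1 replicate 2. Serpine2, a secreted protease inhibitor, was at 6.90, 6.77 and 6.84 log2 CPM in C57BL/6 and 5.92, 5.91 and 6.50 in CD1, 1.65-fold higher. With a library left out its call held only without CD1 replicate 3. Cux2, a homeobox transcription factor, was at 3.63 ± 0.39 and 2.06 ± 0.60 (SD, n = 3 each), and its call held only without C57BL/6 replicate 2 or CD1 replicate 3. Npy1r, a receptor of neuropeptide Y, was at 1.51 ± 0.57 and -0.24 ± 0.28 (SD, n = 3 each), and its call held only without C57BL/6 replicate 3 among the 6 fits with a library left out. Lbp, which encodes the lipopolysaccharide binding protein, was lower in C57BL/6, at 1.75, 0.45 and 1.40 log2 CPM against 5.13, 4.06 and 3.33 in CD1, and its call held only without C57BL/6 replicate 1 or CD1 replicate 3. Rprm, a p53 target linked to cell cycle arrest, was also lower, at 3.14, 3.34 and 3.60 against 5.57, 4.74 and 4.58, and its call was lost without C57BL/6 replicate 1, C57BL/6 replicate 2 or CD1 replicate 1. Lbp and Rprm were highest in CD1 replicate 1, the library with the most ureteric epithelium and endothelial RNA. Both calls were lost with the macrophage, endothelial and erythroid covariates and with the ureteric epithelium covariate. Each of these fits kept 25 of the 58 calls. Both were also lost in the fit of these 6 libraries alone, and that of Lbp with voom weights and with the Xist covariate. The part of other cell types in these 2 differences was not tested.

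Cntnap5b, a contactin-associated cell surface protein of the neurexin family, was the largest fall that held without any 1 library. It lies on chromosome 1 (99772765 to 100485942). The 3 C57BL/6 libraries were at -1.48, -0.29 and -0.01 log2 CPM, with 2, 7 and 8 reads, and the CD1 libraries at 2.65, 3.64 and 2.12, with 104, 84 and 33 reads. The difference was -3.40 ± 0.49 (limma adjusted p = 0.00075), and the call was lost with voom weights and in the fit of these 6 libraries alone. Dmpk, the myotonic dystrophy protein kinase, was at 3.89, 3.92 and 3.54 log2 CPM in C57BL/6 and 4.63, 4.79 and 4.65 in CD1, a difference of -0.91 ± 0.14 (limma adjusted p = 0.0013).

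Eno1b, a near-identical relative of the enolase gene Eno1, was at 3.28, 3.46 and 3.30 log2 CPM in C57BL/6 and 4.44, 4.28 and 4.35 in CD1. The difference was -1.01 ± 0.17 (limma adjusted p = 0.0058). Eno1 itself, to which Eno1b is 99.5% identical over 1736 bases, differed by -0.31 ± 0.35 (limma adjusted p = 0.77). Reads of the 2 loci may be split between them, and this was not tested. Among the glycolysis and hypoxia genes 0 of 20 were called, beside 0.420% of all genes, and Eno2 had the smallest p, with a difference of -1.18 (limma adjusted p = 0.29).

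Besides Rpl35a and AA388235, further called genes had 3 reads or fewer over the 3 libraries of one strain. Ttbk1, a tau kinase, was without reads in C57BL/6 (0 in each library) and had 13, 8 and 6 reads in the CD1 libraries, at least 7.14-fold lower, and its call was lost without CD1 replicate 2. Scgb1a1, the secretoglobin of airway club cells, had 8, 15 and 10 reads in C57BL/6 and 0 in each CD1 library, at least 13.9-fold higher. Sftpc, the surfactant protein of alveolar cells, had 11, 8 and 13 reads against 0, at least 13.4-fold higher. Both lung genes were above 0 reads in every C57BL/6 library of the series, while the wild-type CD1 libraries of E12.5 held 7, 4 and 0 reads of Scgb1a1 and 5, 3 and 0 of Sftpc. The SO libraries on CD1 held 3, 2 and 4 reads of Scgb1a1 at E12.5 and 3, 22 and 4 at E13.5, and of Sftpc 0 in each at E12.5 and 0, 12 and 6 at E13.5. The calls of Scgb1a1 and Sftpc held in 3 and 1 of the 6 fits that leave out a library, and were lost under 6 and 8 of the 12 other settings that tested them. Trim12a, of a restriction factor family whose gene number varies between mouse strains, had 12, 8 and 7 reads in C57BL/6 and 2, 0 and 0 in CD1, a ratio of 17.0 (95% interval 4.28 to 148). A230056P14Rik had 35 reads in C57BL/6 and 1 in CD1. The calls of Trim12a and A230056P14Rik were lost whichever library was left out.

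Trim12a was the 1 called gene of 19, beside 0.420% of all genes, at loci with known variants among strains, a list whose median was -0.22, and its neighbour Trim12c differed by 0.37 (limma adjusted p = 0.75). Of the 9 genes of the major histocompatibility complex 0 were called, which at 0.420% of all genes is close to the background. H2-T24 had the smallest p, with a difference of -3.15 (limma adjusted p = 0.11), and the class I genes H2-K1 and H2-D1 differed by -1.15 and -1.12 (limma adjusted p = 0.47 and 0.30). Of 357 zinc finger genes named Zfp, 1 was called, Zfp862-ps, at 5.60 ± 0.04 in C57BL/6 and 6.04 ± 0.13 in CD1 (SD, n = 3 each). That share is no higher than the 0.420% of all genes, and with a library left out the call of Zfp862-ps held only without CD1 replicate 1.

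With 0.420% of all genes called, lists of this size hold few or no calls at the background rate, and nothing is read from their counts. In 29 of 34 lists 0 members were called, among them the 16 cortical and progenitor stroma genes (median 0.18), the 10 medullary stroma genes (0.07), the 18 Wnt and beta-catenin targets (0.05), the 31 Hox genes (-0.02), the 27 extracellular matrix genes (0.01) and the 15 retinoic acid genes (0.11). Within these 6 lists, the smallest adjusted p-values were those of Rnf43, a Wnt feedback inhibitor, at -4.80 (limma adjusted p = 0.065), and Fibin, a mesenchymal secreted factor, at 0.70 (limma adjusted p = 0.076). Rnf43 had 0 reads in the 3 C57BL/6 libraries and 98, 3 and 12 in CD1, most of them in the library with the most ureteric epithelium RNA. All 14 ureteric epithelium genes were below 0, with a median of -1.99 and 0 called, and Krt8 had the smallest p, at -4.89 ± 1.28 (limma adjusted p = 0.090). All 14 macrophage and 8 liver genes were also below 0, with medians of -0.64 and -1.60 and 0 called.

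The same comparison at E12.5 used other libraries, with 75 of 13803 genes called (0.543%), 53 higher and 22 lower in C57BL/6. Both the number and its balance moved with the processing: with voom weights 52 were higher and 70 lower, without C57BL/6 replicate 3 of that stage 121 were higher and 338 lower, and 5 were called with the macrophage, endothelial and erythroid covariates. That replicate held liver transcripts, at 4617 CPM over the 8 liver genes against 18.4 and 15.6 CPM in the other C57BL/6 libraries of E12.5 and 263 to 302 CPM in the CD1 ones, and its part in the calls was not tested beyond leaving it out. There were 20 genes called at both stages, all in the same direction, 34.5% of the E13.5 calls and 26.7% of the E12.5 calls. Of the 58 genes called at E13.5, 55 had the same sign at E12.5, and 49 had the larger difference at E13.5, the stage by which they were chosen. AA388235 had 0 reads in CD1 at E12.5 too and was at least 36.4-fold higher in C57BL/6. Rpl29 was 9.12-fold higher at E12.5, Rps2 3.32-fold and 2610507I01Rik differed by 3.70 on the log2 scale. Rps4l and Ndufa12 were not called at E12.5, with differences of 0.24 and 0.38, and the tests of the change between stages gave limma adjusted p-values of 0.088 and 0.93. Pnpla6, Rbpms2 and Serpine2 had the opposite sign at E12.5.

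The strain difference itself changed between the stages in 2 of 13803 genes (0.0145%), and 712 had an unadjusted p under 0.05. Rpl35a was at 4.66, 4.86 and 4.58 log2 CPM in the E12.5 C57BL/6 libraries and at 2.15, 2.42 and 3.33 in the CD1 ones, so its difference of 2.06 there was 5.72 ± 0.52 smaller than at E13.5 (limma adjusted p = 2.1e-06). With voom weights that adjusted p was 0.90. Cwc22, a splicing factor, was at 5.38, 5.58 and 5.32 log2 CPM in the E12.5 C57BL/6 libraries and at 6.17, 6.24 and 6.31 in the CD1 ones. At E13.5 it was at 5.51, 5.57 and 5.77 against 5.46, 5.53 and 5.50, where the groups overlapped. The difference rose by 0.93 ± 0.14 (limma adjusted p = 0.0060).

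**Figure D4:**
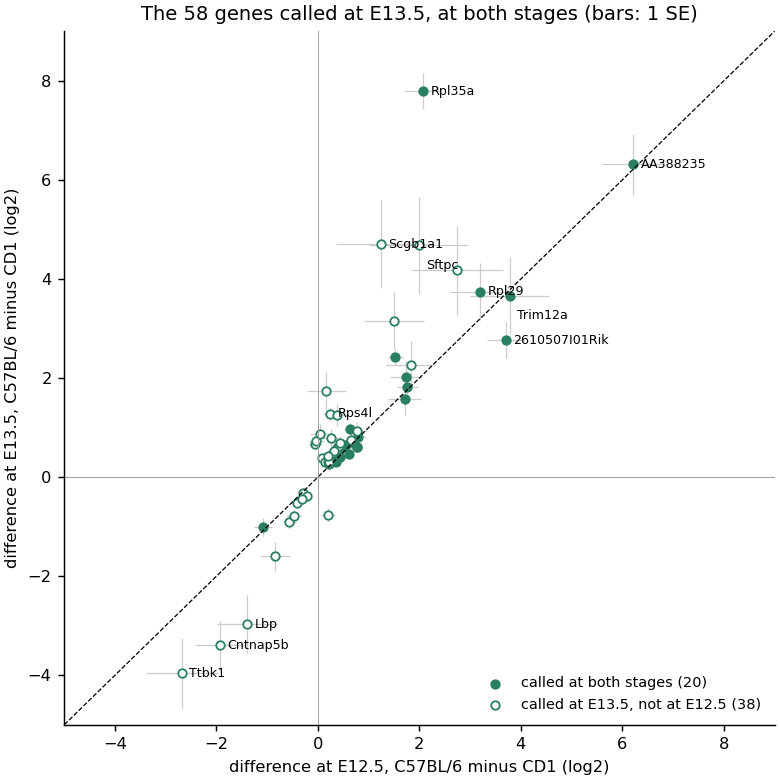
Strain difference (log2, C57BL/6 minus CD1, bars 1 SE) of the 58 genes called at E13.5, at E12.5 (x axis) and at E13.5 (y axis), with the dashed line of equal differences. Filled points are the 20 genes called at both stages, and Rpl35a lies farthest above the line.

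The mutant libraries of each strain gave a further view of the 58 genes, in which genotype goes with strain. In 33 of 13803 genes (0.239%) all 12 C57BL/6 libraries lay beyond all 12 CD1 libraries, 27 higher and 6 lower, and 14 of these were among the 58. They included AA388235, Trim12a, Rps2, Eno1b, Fut10, Ncapd2 and Rps28. For AA388235 the lowest C57BL/6 library was at 1.53 log2 CPM and every one of the 12 CD1 libraries had 0 reads. Rps2 was between 5.65 and 6.82 in C57BL/6 and between 1.45 and 4.70 in CD1, and its level was lower in SO cells (3.02 ± 0.58 at E13.5, SD, n = 3) than in CD1 wild-type cells (4.21 ± 0.43, SD, n = 3).

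Other genes were at the level of one strain in a single genotype. Rgs5 was between 6.96 and 7.57 log2 CPM in every C57BL/6 library, mutants included, and between 7.02 and 7.44 in the SO libraries on CD1, while the CD1 wild-type libraries of both stages were between 4.77 and 5.92. Rpl35a and 2610507I01Rik had the same order: the SO libraries were at 5.09 ± 0.85 and 3.26 ± 0.17 at E13.5 (SD, n = 3 each), near C57BL/6, and only CD1 wild-type was low. Rpl29 was high in C57BL/6 wild-type cells only, since SD cells on C57BL/6 were at 0.52 ± 0.70 and SO cells at 0.32 ± 0.79 at E13.5 (SD, n = 3 each). Cntnap5b was below 0 log2 CPM in C57BL/6 wild-type cells at E13.5 alone, with 2.11 ± 0.37 at E12.5 and 2.40 ± 0.39 in SD cells at E13.5 (SD, n = 3 each). By the group means at E13.5, SD lay nearer to C57BL/6 wild-type and SO nearer to CD1 wild-type in 22 of the 58 genes, and both mutants lay nearer to C57BL/6 in 26, to CD1 in 8 and to the other strain in 2. Genotype and strain of origin of the alleles cannot be told apart here.

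**Figure D5:**
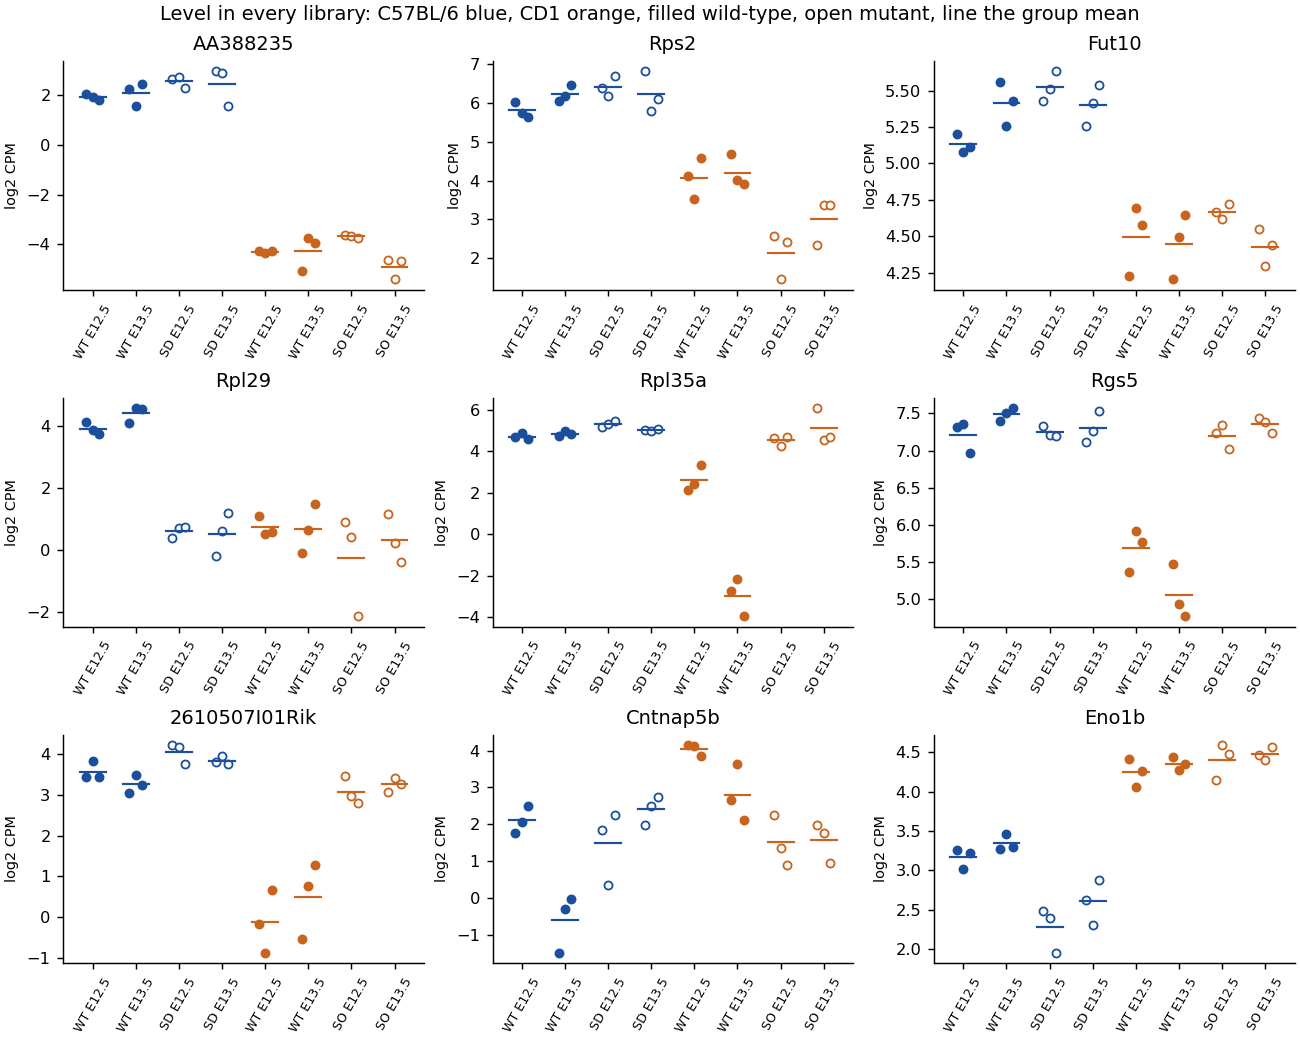
Level of 9 genes in all 24 libraries (y axis, log2 CPM), with C57BL/6 in blue, CD1 in orange, wild-type filled, SD and SO mutants open, and a line at each group mean. AA388235, Rps2, Fut10 and Eno1b separate the strains in every library, whereas Rpl35a, Rgs5 and 2610507I01Rik are low in CD1 wild-type and Rpl29 is high in C57BL/6 wild-type.

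By position, the 58 genes lay on 18 chromosomes. Chromosome 7 had the highest share, 9 of 1027 genes tested (0.876%), and the X chromosome held 0 of 497, beside 0.420% of all genes. With so few calls per chromosome, nothing is read from these counts. No window of 1 Mb held 3 or more, and 4 windows held 2. Lbp and Snhg11, a host gene of small nucleolar RNA, lie 42.8 kb apart on chromosome 2 and differed in opposite directions, by -2.97 and 2.25. Pclaf and Rbpms2 lie 230 kb apart on chromosome 9, and Dmpk and Pvr 810 kb apart on chromosome 7. Of the 58 genes, 53 are annotated as protein coding, and 27 overlap another gene on the opposite strand, whose reads cannot be told apart from theirs if counting ignored strand. Neither share was counted over all genes, so neither is read as a trait of the called genes.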

How the data were processed

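RNA of sorted kidney stroma was sequenced on an Illumina HiSeq system. The authors deposited log2 CPM values with 0.5 added to each read count; the submitters' processing notes name HISAT2, HTSeq, limma and mm10 without versions. The treatment of strand and of reads with several placements, and any filter on genes, is not given in the sources used here. From these values the read counts were computed back, 100% of them within 0.1 of a whole number, with 6184257 to 21168300 per library; intervals cover counting error only. Of the gene symbols, 20 had been turned into dates. The log2 values were fitted with limma 3.58.1 in R 4.3.3 (8 group means over 24 libraries, mean-variance trend, 16 residual degrees of freedom), 2-sided, with 3 contrasts and adjustment over 13803 genes; the fit was tested on simulated data. A filter of at least 3 libraries above a log2 CPM of 0 removed 0 genes. Copies were found with BLAST 2.17.0 (at least 95% identity over 200 bases, and over 50% of the transcript where counted for all genes) among GENCODE M21 transcripts. Named genes are the 10 largest changes and the 5 smallest p-values each way that were called without any 1 library, did not overlap between strains and had a given name and a mean log2 CPM above 0, up to 4 called members of each of 34 lists or the 1 nearest to a call, up to 5 genes each way whose difference changed between stages, members of windows with 3 or more calls, and Foxd1 and Ctnnb1. The comparison and the lists were chosen with earlier results of these data known. Some called genes are counted but not reported by name here.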

Additional observations from a re-analysis of the deposited data

Results flagged for a closer look

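From E12.5 to E13.5 the log2 difference between the strains (C57BL/6 minus CD1) went up by 5.72 in Rpl35a and by 0.93 in Cwc22. Both were flagged because the test of the difference between the stages in limma passed the threshold, with adjusted p-values of 2.1e-06 and 0.0060. In Rpl35a the CD1 wild-type libraries had 42, 54 and 97 reads at E12.5 and 2, 1 and 0 at E13.5, whereas C57BL/6 had 182 to 348 reads in each of its 6. In Cwc22 the CD1 libraries at E12.5 were the ones that stood apart, above the other 9 wild-type libraries. Cwc22 transcripts are near-identical to those of 7 other loci and Rpl35a to those of 14. The part of these copies in the change between stages was not tested.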

How the results depend on the processing

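At E13.5, 58 genes were called, and 34 with only the 12 wild-type libraries, 14 with only these 6, 37 with voom weights and 28 with the ureteric epithelium level as a covariate, an alternative chosen after seeing the data. Leaving out 1 library gave 28 to 86. At E12.5, 75 were called, and 5 with the macrophage, endothelial and erythroid covariates, 30 with only the 12 wild-type libraries and 122 with voom weights. Leaving out 1 library gave 18 to 459 there: 19, 18 and 459 without C57BL/6 replicates 1, 2 and 3, and 40, 22 and 38 without CD1 replicates 1, 2 and 3. For the difference between stages, 2 were called, and 9 with those covariates, 4 with the replicate block and 1 with voom weights, and 2 to 5 without 1 library, 5 being without C57BL/6 replicate 3 of E12.5 and 4 without CD1 replicate 3 of E12.5 or CD1 replicate 1 of E13.5. The other settings stayed within 1.5 times these counts. With the replicate number as a block 52 genes were called at E13.5 and 89 at E12.5. The labels tie these numbers to no litter or day. Same-numbered deviations correlated at 0.11, 0.01 and 0.04 at E13.5 and at 0.21, 0.08 and 0.03 at E12.5. Those with different numbers correlated at -0.14 to 0.10, and not every library correlated best with its own number. Whether same-numbered libraries shared a day is not given in the sources used here. Why counts moved was not tested, beyond the fewer libraries of some fits. No named value reversed its direction as a call. For called genes with 0 reads in a group, the fold change is a bound against a floor of 3 reads. For those with 1 to 3 reads it is a ratio with a wide interval.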
